A study of Homo sapiens with 6 samples.

Results

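The T-cell receptor of alpha-beta T cells is a complex of an antigen-binding alpha and beta chain with the CD3 gamma, delta, epsilon and zeta chains. Transcripts of 10 genes or gene segments for these chains and for the pre-T alpha chain were followed here. The cells were MOLT-4, an established line from a human T-cell leukemia, T-ALL. The 10 members were taken by gene name from the deposited tables, which list 60640 gene identifiers: CD3D, CD3E, CD3G, CD247, PTCRA, TRAC, TRBC1, TRBC2, TRBV20-1 and TRBV10-3. The study deleted IKZF1, the gene of the DNA-binding regulator IKAROS, and the comparison asks how receptor transcripts differ between edited and control cells. RNA-seq of polyadenylated RNA was performed on 3 libraries of wild type MOLT-4, the CRISPR control, and on 3 libraries labelled IK-KO, made from cells edited in IKZF1 with CRISPR-Cas. All cells were grown in the same medium with serum, with no other treatment, and were bought as an edited line with its control. The labels name no clone and no separate cultures, so p-values measure only the spread between these libraries. Which edited clone was sequenced is not stated, and anything else that differs between edited and control cells cannot be told apart from the edit.

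The alpha and beta chains bind antigen but have short cytoplasmic tails and do not signal. Signals pass through ITAMs, paired tyrosine motifs in the tails of the CD3 chains: CD3D, CD3E and CD3G carry one each, and the zeta chain, encoded by CD247, carries several. In the thymus the beta chain is rearranged first and pairs with PTCRA, the invariant pre-T alpha chain. PTCRA is later replaced by the alpha chain, whose constant part is TRAC. The beta chain carries one of 2 constant parts, TRBC1 or TRBC2, behind a V segment such as TRBV20-1 or TRBV10-3. A rearranged chain that lacks any partner is retained inside the cell, and the zeta chain is known to limit how many complete complexes reach the surface.

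Values are FPKM, fragment counts scaled for transcript length and for library depth so that genes can be compared. For short rows such as the V segments, a comparison with other genes rests on the length correction. Differences were tested on log2(FPKM + 1) with limma over the 12652 genes whose mean FPKM reached 1, and a gene was called at an adjusted p under 0.05. A gene below 1 FPKM in 1 group could pass this filter through the other group. All 10 members, which were chosen with earlier results of these data known, passed this filter. Of these, 6 were called, against 19.9% of all tested genes: 5 were higher in the libraries labelled IK-KO (10.1% of all genes) and 1 was lower (9.75%). The groups did not overlap in the same 6 members (39% of all genes). A change of at least 1 in size on the log2 scale was called in 2 members, CD247 and TRAC (3.19% of all genes), and 7 members had an unadjusted limma p under 0.05 (33.4%). The median log2 change of the members was 0.26, and that of all tested genes was 0.02. The library sums of FPKM lay between 699352 and 738051. For IKZF1 itself the FPKM was 134, 124 and 105 in wild type against 207, 260 and 207 in IK-KO-labelled libraries, so its RNA was higher and the knockout label cannot be checked from its level. The study tested for the loss of IKAROS by PCR and by western blot of its protein in knockout clones, which these RNA tables do not measure. The deposited tables carry no sequence.

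The label of a T-lineage line was checked against markers. All 10 T-lineage markers reached 1 FPKM in at least 1 library, and their sum lay between 454 and 482 FPKM in wild type libraries and between 439 and 457 FPKM in IK-KO-labelled libraries. Single markers moved: CD2, CD4, CD5, CD7, CD8A and CD28 were called lower, CD1A and GATA3 were called higher, and LCK and BCL11B were not called. The 6 B-lineage markers summed to between 1.49 and 3.62 FPKM in wild type libraries and to between 1.11 and 1.53 FPKM in IK-KO-labelled libraries. The 6 myeloid and 5 erythroid markers stayed below 1 FPKM in every library, with CD33 and HBB listed at 0 throughout. The natural killer list summed to between 1.59 and 4.98 FPKM, with FCGR3A listed at 0. In bulk RNA, fewer cells with a transcript and less transcript per cell cannot be told apart.

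**Figure D1:**
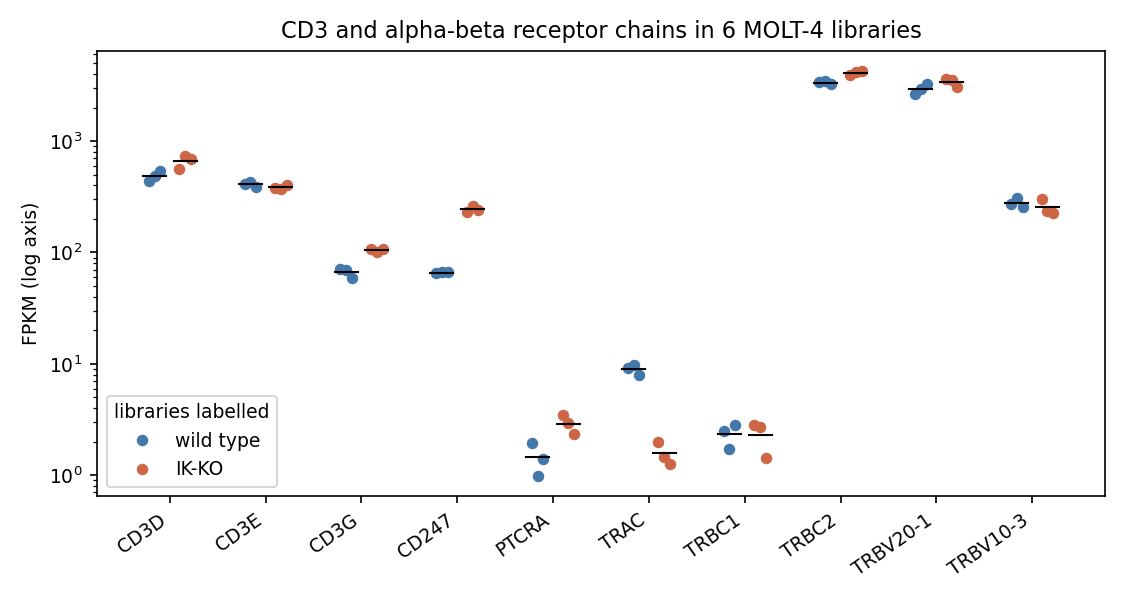
FPKM of the 10 members (log axis) in the 3 wild type libraries (blue) and the 3 libraries labelled IK-KO (orange); each point is a library and each bar a group mean. CD247 rises from a mean of 66.0 to 246 FPKM and TRAC falls from 8.92 to 1.57 FPKM, while the CD3E groups overlap.

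The levels spanned more than 3 orders of magnitude. In wild type the order of the means was TRBC2 (3357 FPKM), TRBV20-1 (2942), CD3D (489.5), CD3E (408), TRBV10-3 (280.4), CD3G (66.5), CD247 (66.0), TRAC (8.92), TRBC1 (2.35) and PTCRA (1.44). By mean FPKM over the 6 libraries, TRBC2 ranked 17 and TRBV20-1 ranked 27 among all tested genes. Between neighbours in this order, the wild type ranges of TRBC2 and TRBV20-1, of CD3G and CD247, and of TRBC1 and PTCRA overlapped. In the libraries labelled IK-KO, CD247 (246 FPKM) had passed CD3G (105 FPKM), with no overlap of their ranges. TRAC (1.57 FPKM) had become the lowest member, although its range overlapped that of TRBC1.

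CD247 encodes the zeta chain, a homodimer that carries most of the signalling motifs of the receptor. It lies on chromosome 1 at 167430640 to 167518610 (GRCh38, minus strand), and its canonical transcript has 8 exons. The FPKM of CD247 was 65.0, 66.6 and 66.5 in the wild type libraries and 232, 262 and 243 in those labelled IK-KO. Every library labelled IK-KO lay above every wild type library, and the lowest bound of their confidence intervals (223 FPKM) was above the highest wild type bound (70.3 FPKM). The mean rose from 66.0 ± 0.883 to 246 ± 15.4 FPKM (SD, n = 3), which is 3.72-fold. The log2 change was 1.88 (SE 0.06, limma adjusted p 7.79e-06), the largest rise among the members, and it ranked 100 in size among all tested genes. It held in all 15 alternatives. The 50 tested genes nearest to CD247 had a median log2 change of 0.19, and with the neighbours' changes removed CD247 changed by 1.68.

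Of 9 other tested genes within 500 kb of CD247, 2 were called higher and 2 lower, with a median log2 change of 0.08. The largest change was a fall in ILDR2, 455.1 kb away, from 4.30 ± 0.190 to 0.779 ± 0.261 FPKM (SD, n = 3). The 2 genes called higher, CREG1 and RCSD1, were named after their values were seen. They lie 10.5 and 111 kb beyond the end of CD247 that holds its promoter and changed by 0.91 and 0.86 on the log2 scale.

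The 3 other CD3 genes lie together on chromosome 11. CD3E occupies 118304730 to 118316175 (plus strand, 9 exons), CD3D 118338954 to 118342744 (minus strand, 5 exons) and CD3G 118344344 to 118355161 (plus strand, 7 exons). CD3D and CD3G are transcribed away from each other across a gap of 1.60 kb, and CD3E lies 22.8 kb from CD3D. Their products form the CD3 epsilon-delta and epsilon-gamma pairs that hold the alpha and beta chains.

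The FPKM of CD3G, the gamma chain, was 71.2, 69.0 and 59.4 in the wild type libraries and 107, 100.4 and 108 in those labelled IK-KO. The groups were well separated, and the mean rose 1.58-fold, from 66.5 ± 6.24 to 105 ± 3.98 FPKM (SD, n = 3). The log2 change was 0.65 (SE 0.08, limma adjusted p 0.00158) and held in all 15 alternatives.

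The FPKM of CD3D, the delta chain, was 443, 487 and 539 in the wild type libraries and 565, 739 and 696 in those labelled IK-KO. The groups did not overlap, but wild type replicate 3 and IK-KO replicate 1 came close, and their confidence intervals (465 to 613 and 510 to 620 FPKM) overlapped. The log2 change was 0.44 (SE 0.11, limma adjusted p 0.0338). This call was lost in 8 of 15 alternatives, among them the fits that left out wild type replicate 1 (limma adjusted p 0.0979) or 2 (0.0861), or replicate 2 (0.0956) or 3 (0.0983) of those labelled IK-KO. The direction was the same in all of them.

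The FPKM of CD3E, the epsilon chain that is part of both CD3 pairs, was 412, 425 and 386 in the wild type libraries and 378, 372 and 404 in those labelled IK-KO. The groups overlapped. The log2 difference was −0.08 (95% interval −0.21 to 0.04, limma adjusted p 0.327), an interval that leaves out the changes of CD3G and CD3D. CD3E is used as the reference in the ratios of the CD3 chains below.

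Per length, wild type libraries held 1.07, 1.14 and 1.40 CD3D transcripts for each CD3E transcript, and the libraries labelled IK-KO held 1.496, 1.99 and 1.72. CD3G per CD3E was 0.173, 0.162 and 0.154 against 0.283, 0.270 and 0.266. CD247 per CD3E was 0.158, 0.157 and 0.172 against 0.613, 0.705 and 0.600. None of these 3 ratios overlapped between the groups, and their geometric means were 1.44-fold, 1.68-fold and 3.94-fold higher in IK-KO-labelled libraries. An exact two-sided permutation test over libraries gave p = 0.1 for each of the 3, the smallest that 3 against 3 libraries allow, and 0.16 after adjustment over the 8 ratios computed.

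**Figure D2:**
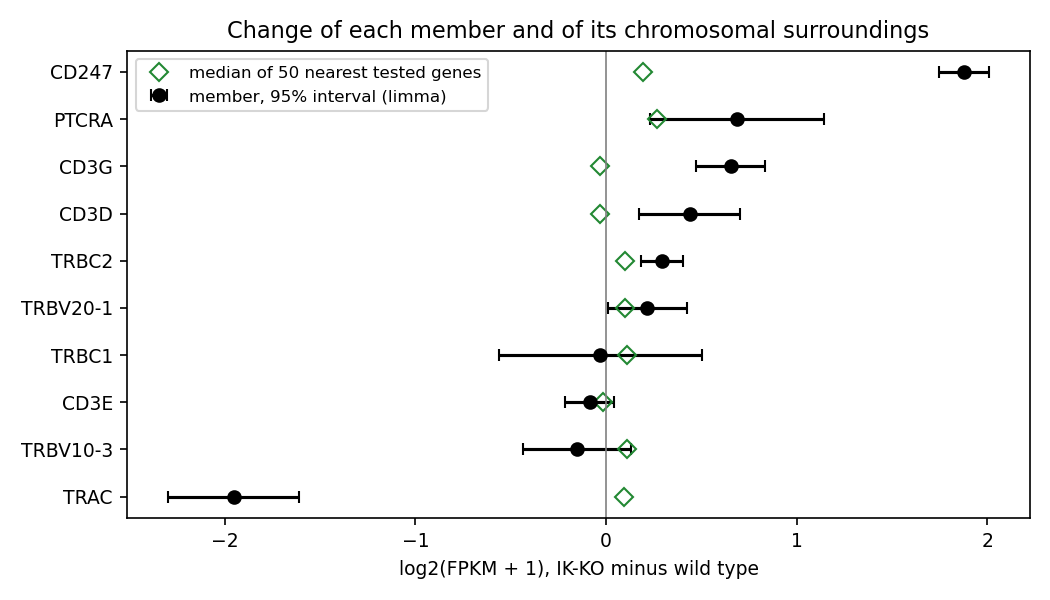
Change in log2(FPKM + 1), libraries labelled IK-KO minus wild type, for each member (black, 95% interval from limma) and the median change of the 50 nearest tested genes on its chromosome (green diamonds). CD247, at 1.88, and TRAC, at −1.95, lie far from their surroundings, whereas the interval of PTCRA reaches the median of its neighbours at 0.27.

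Around the CD3 cluster, 2 of 11 other tested genes within 500 kb were called, 1 in each direction, and the median log2 change of the 11 was −0.02. The largest change there was in FXYD6, a regulator of the sodium pump 427.2 kb from the cluster, at 1.98 ± 0.682 and 37.2 ± 1.10 FPKM (SD, n = 3). FXYD2, of the same family and named after its values were seen, lies 476 kb away and fell from 420.9 ± 24.9 to 169.7 ± 5.91 FPKM (SD, n = 3). The other 9 genes, among them all those nearer than FXYD6, were not called. By Pearson correlation over the 6 libraries, the genes whose log2(FPKM + 1) was most like the mean of CD3D, CD3E and CD3G were TPT1 (r = 0.999), GABPB1-IT1 (r = 0.998) and SLC6A9 (r = 0.997). These are descriptions over 6 points that fall into 2 groups of 3 libraries.

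**Figure D3:**
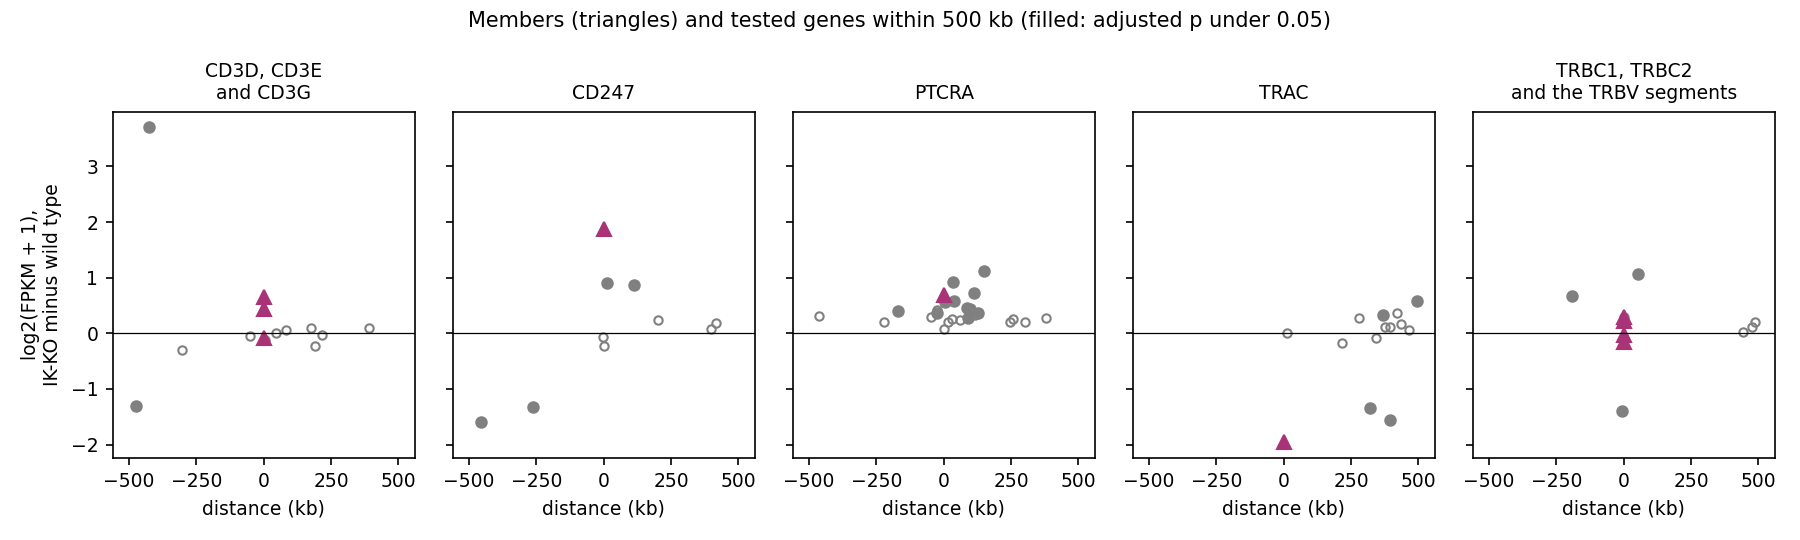
Change in log2(FPKM + 1) of the members (triangles, placed at 0) and of every other tested gene within 500 kb against its distance in kb, one panel for each locus; filled circles are genes called by limma. At the CD3 cluster 9 of 11 other genes were not called, while all 24 genes around PTCRA lie above 0.

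The RefSeq promoter table (GRCh38.p14) held 3 of the 10 members: CD3D, CD247 and PTCRA. The 250 bases before each RefSeq start site are shown for these 3 because only they were in that table. All 3 were called higher in the libraries labelled IK-KO. Their RefSeq start sites lie inside the gene bounds given in the text, so each window reaches into those bounds. Capitals mark GGGAA, the core motif of IKAROS, read on either strand. The windows are chr11:118342706-118342955 (minus strand) for CD3D, chr1:167518530-167518779 (minus strand) for CD247 and chr6:42915803-42916052 (plus strand) for PTCRA.
CD3D: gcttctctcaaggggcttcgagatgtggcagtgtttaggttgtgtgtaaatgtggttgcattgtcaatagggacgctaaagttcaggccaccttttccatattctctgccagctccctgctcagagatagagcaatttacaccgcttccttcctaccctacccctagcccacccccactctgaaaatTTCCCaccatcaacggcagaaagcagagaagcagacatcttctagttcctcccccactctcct
CD247: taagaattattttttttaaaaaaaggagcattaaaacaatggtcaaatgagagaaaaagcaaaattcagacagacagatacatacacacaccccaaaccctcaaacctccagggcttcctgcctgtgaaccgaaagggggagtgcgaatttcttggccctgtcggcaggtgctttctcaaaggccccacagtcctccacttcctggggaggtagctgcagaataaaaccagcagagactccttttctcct
PTCRA: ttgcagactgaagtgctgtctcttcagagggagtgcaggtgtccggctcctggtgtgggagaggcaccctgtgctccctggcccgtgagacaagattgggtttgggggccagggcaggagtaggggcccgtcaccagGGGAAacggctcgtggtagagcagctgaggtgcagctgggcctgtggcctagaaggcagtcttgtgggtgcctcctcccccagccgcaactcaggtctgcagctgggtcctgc
CD3D had 1 match, whose first base lay at −63 from the start site, and PTCRA had 1, at −113. CD247 had 0. The motif is short, and 59.0% of the 35116 promoters of the table hold it in the same window. The E-box CAGNTG, also read on both strands, bound by E proteins, occurred 4 times before PTCRA, 1 time before CD247 and 0 times before CD3D, and 42.5% of promoters hold it. The RUNX motif TGTGGT occurred 1 time, before CD3D, and 11.0% of promoters hold it. The letters AGATAA, a motif of the GATA factors, occurred in none of the 3 and in 9.17% of promoters. A match is a run of letters only, and binding was not measured in these files.

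TRAC encodes the constant part of the alpha chain and lies on chromosome 14 at 22547506 to 22552156 (plus strand, 4 exons). The FPKM of TRAC was 9.10, 9.78 and 7.86 in the wild type libraries and 1.99, 1.47 and 1.25 in those labelled IK-KO. The groups were far apart. The mean fell from 8.92 ± 0.972 to 1.57 ± 0.377 FPKM (SD, n = 3), which is 5.68-fold lower. The log2(FPKM + 1) change was −1.95 (SE 0.14, limma adjusted p 0.000235), a scale that understates the change of a low gene. It held in all 15 alternatives, from −2.45 to −1.86. TRAC has a single annotated transcript, and its confidence bounds correspond to about 138, 155 and 109 fragments in wild type libraries and 27, 23 and 21 fragments in those labelled IK-KO. Such numbers cover counting error only.

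TRAC was scarce beside the beta chain in both groups. Per length it amounted to 0.268%, 0.283% and 0.244% of TRBC2 in wild type libraries and to 0.0502%, 0.0355% and 0.0294% in those labelled IK-KO, with no overlap (exact permutation p = 0.1, adjusted 0.16). Of 54 rows for alpha V segments, only TRAV1-1 was above 0. Its FPKM was 1.43, 2.39 and 1.63 in the wild type libraries, while IK-KO replicates 1 and 2 were listed at 0 and replicate 3 at 0.746. It was called lower (limma adjusted p 0.0229), but it passed the filter of 1 FPKM only through the wild type libraries. Its group means were 1.81 FPKM in wild type and 0.249 FPKM in IK-KO-labelled libraries. A row admitted in that way leans toward a lower call. All 60 rows for alpha J segments were listed at 0. These rows are very short, and a 0 in such a row does not show that the segment was absent. They say nothing about which J segment was used.

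Of 13 other tested genes within 500 kb of TRAC, 2 were called higher and 2 lower, and the median log2 change was 0.11. The largest was AL132780.3, a noncoding gene 394 kb away, with an FPKM of 4.61, 5.83 and 5.64 among wild type and 2.65, 1.69 and close to 0 among IK-KO-labelled libraries. With the changes of the nearest 50 genes removed, TRAC changed by −2.04 on the log2 scale.

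PTCRA, the pre-T alpha chain, lies on chromosome 6 at 42915989 to 42925835 (plus strand, 4 exons). Its FPKM was 1.95, 0.986 and 1.39 in the wild type libraries and 3.43, 2.92 and 2.36 in those labelled IK-KO. The groups did not overlap, but all values were low, and the highest wild type interval (1.22 to 2.68 FPKM) overlapped the lowest of the other group (1.62 to 3.10 FPKM). The log2 change was 0.69 (SE 0.19, limma adjusted p 0.0466). The call was lost in 9 of 15 alternatives, among them those without wild type replicates 2 or 3 or without any 1 of IK-KO replicates 1 to 3 (adjusted p 0.0616 to 0.137). All 24 other tested genes within 500 kb had a positive log2 change, 11 of them were called, and their median was 0.32. The median over all tested genes of chromosome 6 was 0.21, against 0.02 for all genes, and its part in the result of PTCRA was not tested. The 50 nearest genes had a median of 0.27, and with their changes removed the log2 change of PTCRA was 0.41 and was not called (limma adjusted p 0.21). The gene with the largest change there was PTK7, a receptor-like surface protein 150 kb away, at 36.2 ± 2.89 and 79.8 ± 5.82 FPKM (SD, n = 3).

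Since PTCRA and TRAC supply alternative partners of the beta chain, their ratio was computed. PTCRA per TRAC was 0.214, 0.101 and 0.176 in wild type libraries and 1.73, 1.99 and 1.89 in those labelled IK-KO. The order of the 2 FPKM estimates was thus the opposite in the groups, with TRAC above PTCRA in all 3 wild type libraries and below it in all 3 others. The confidence intervals of the 2 transcripts were apart in each wild type library but overlapped in each library labelled IK-KO. In IK-KO replicate 1 they were 1.22 to 2.75 FPKM for TRAC and 2.44 to 4.43 FPKM for PTCRA. The geometric mean of the ratio was 11.9-fold higher in IK-KO-labelled libraries (exact permutation p = 0.1, adjusted 0.16). Both transcripts together still amounted to a small part of TRBC2.

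The beta chain genes lie on chromosome 7, with TRBC1 at 142791694 to 142793368 and TRBC2 at 142801041 to 142802748 (both plus strand, 4 exons), 7.67 kb apart. The FPKM of TRBC2 was 3391, 3456 and 3225 in the wild type libraries and 3960, 4134 and 4260 in those labelled IK-KO. The groups did not overlap, and the mean was 1.23-fold higher (3357 ± 119 and 4118 ± 151 FPKM, SD, n = 3). The log2 change was 0.29 (SE 0.05, limma adjusted p 0.00568). Without the filter on low values the adjusted p was 0.0575, and the other 14 alternatives called it. The bounds of TRBC2 correspond to at least 29568 fragments in each library.

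The FPKM of TRBC1 was 2.48, 1.73 and 2.83 in the wild type libraries and 2.82, 2.70 and 1.42 in those labelled IK-KO. The groups overlapped, and the log2 difference was −0.03 (95% interval −0.56 to 0.50, limma adjusted p 0.944). The estimate rested on between 16 and 29 fragments a library. TRBC1 held between 0.0333% and 0.0876% of the FPKM of the 2 constant genes together, so nearly all of the beta constant signal was assigned to TRBC2.

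The 2 constant genes are close copies. Their first exons have the same length of 387 bases and differ at 7 of them (98.2% identity). The second exons of 18 bases differ at 2, and the third exons of 107 bases differ at 8. The fourth exons, of 248 bases in TRBC1 and 246 in TRBC2, were not compared. The first 120 bases of exon 1 are shown for each gene, from hg38 at chr7:142791694-142791813 and chr7:142801041-142801160 (plus strand), because the 2 copies can be told apart only where their bases differ. Capitals mark the 5 positions that differ.
TRBC1: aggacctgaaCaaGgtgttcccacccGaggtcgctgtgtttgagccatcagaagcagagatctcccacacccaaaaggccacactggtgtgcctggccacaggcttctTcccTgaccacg
TRBC2: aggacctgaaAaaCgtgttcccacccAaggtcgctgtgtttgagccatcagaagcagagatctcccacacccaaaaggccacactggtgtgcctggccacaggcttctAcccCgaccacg
Long stretches between the capitals are the same, so a fragment that misses them fits both copies. Whether the few fragments of TRBC1 came from TRBC2 was not tested. The sum of both genes, which does not depend on the division, rose from a mean of 3360 to 4120 FPKM, or 0.29 on the log2 scale (SE 0.05, limma adjusted p 0.00565).

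Among the beta V segments, 26 of 69 rows were above 0 in at least 1 library and 6 in all of them. TRBV20-1, TRBV10-3 and TRBV7-2 together held between 99.5% and 99.8% of the summed TRBV level in every library. TRBV20-1 held between 89.4% and 92.7%, TRBV10-3 between 6.15% and 9.48%, and TRBV7-2 between 0.602% and 1.03%. The same 3 segments thus led in both groups.

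The FPKM of TRBV20-1 (142626649 to 142627399, 164 kb before TRBC1) was 2662, 2924 and 3239 in the wild type libraries and 3642, 3517 and 3091 in those labelled IK-KO. The groups overlapped in FPKM, through wild type replicate 3 and IK-KO replicate 3, but not in the implied fragments given below. The log2 difference was 0.22 (95% interval 0.01 to 0.43, limma adjusted p 0.136), and it was called in 0 of 15 alternatives, with an adjusted p of 0.0743 at the lowest. Per length there were 0.785, 0.846 and 1.004 TRBV20-1 for each TRBC2 in wild type libraries and 0.920, 0.851 and 0.725 in those labelled IK-KO. This ratio overlapped between the groups (exact permutation p = 0.7, adjusted 0.7).

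The FPKM of TRBV10-3 (142544212 to 142544685) was 274, 310.2 and 257 in the wild type libraries and 302, 233 and 226 in those labelled IK-KO. The groups overlapped, and the log2 difference was −0.15 (95% interval −0.44 to 0.13, limma adjusted p 0.427). As a share of TRBV20-1 it was 10.3%, 10.6% and 7.95% in wild type and 8.28%, 6.63% and 7.30% in the other group (exact permutation p = 0.2, adjusted 0.267).

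The FPKM of these short rows depends on the length correction of each library. For TRBV10-3, 1 FPKM corresponded to 1.60, 1.56 and 1.38 fragments in wild type libraries and to 1.42, 1.88 and 2.10 fragments in those labelled IK-KO. Relative to TRBC2 in the same library, this was 0.159, 0.149 and 0.151 against 0.157, 0.178 and 0.187. The implied fragments of TRBV10-3 were 437, 485 and 356 in wild type and 428, 439 and 475 in the other group. The libraries with the lowest FPKM of TRBV10-3, IK-KO replicates 2 and 3, were thus not those with the fewest fragments. For TRBV20-1, 1 FPKM corresponded to 2.18 fragments in wild type replicate 3 and to 3.08 in IK-KO replicate 3. These are the libraries through which its FPKM overlapped between the groups. The implied fragments of TRBV20-1 were 6618, 7235 and 7073 in wild type and 8011, 9791 and 9510 in the other group. These fragments, which are not scaled for library depth, did not overlap. The part of the length correction in the V segment differences was not tested.

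**Figure D4:**
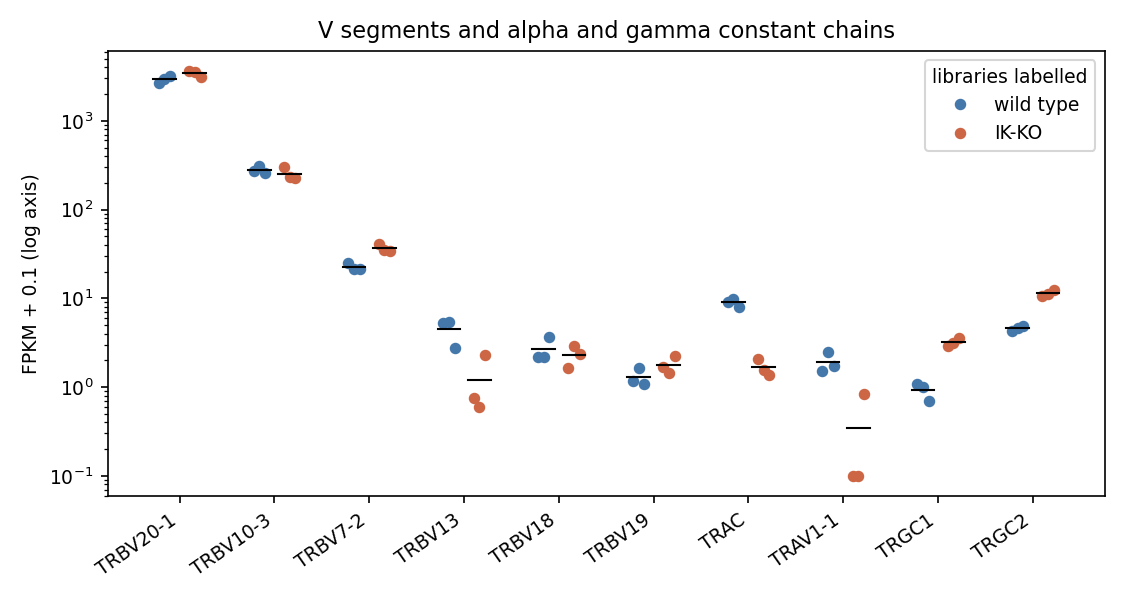
FPKM + 0.1 (log axis) of the beta V segments with a mean of at least 1 FPKM, of TRAC and TRAV1-1 and of the gamma constant genes in each library (blue wild type, orange labelled IK-KO; bars are means). TRBV20-1 and TRBV10-3 overlap between the groups, whereas TRAC falls and TRGC1 and TRGC2 rise. TRAV1-1 is lower but passed the filter of 1 FPKM only through the wild type libraries.

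Of the other V segments, TRBV7-2 rose from 22.5 ± 1.93 to 36.7 ± 4.03 FPKM (SD, n = 3, log2 change 0.68, limma adjusted p 0.00368). TRBV13 fell from 4.36 ± 1.49 to 1.12 ± 0.948 FPKM (SD, n = 3, log2 change −1.39, limma adjusted p 0.0302), the largest change of any other tested gene within 500 kb of the beta chain members. Its values were low, and wild type replicate 3 (2.65 FPKM) and IK-KO replicate 3 (2.21 FPKM) came close. TRBV18 and TRBV19 were not called, at means of 2.56 and 2.21 FPKM and of 1.20 and 1.69 FPKM. The rows of the 14 beta J segments and of 1 D segment were listed at 0, although rearranged beta transcripts carry them. In the constant genes of the gamma-delta receptor, TRGC1 rose from 0.829 ± 0.202 to 3.09 ± 0.335 FPKM and TRGC2 from 4.52 ± 0.256 to 11.3 ± 0.946 FPKM (SD, n = 3, limma adjusted p 0.00286 and 0.000387). TRGC1 was below 1 FPKM in every wild type library and passed the filter through the other group. TRDC was listed at 0 in all 6 libraries.

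Genes that work with the receptor were read from lists by function and set beside the 19.9% of all genes that were called. The lists were chosen with earlier results of these data known, so their counts are descriptions only. Of 31 tested coreceptors and proximal signalling molecules, 4 were called higher and 15 lower, with a median log2 change of −0.30. CD2, an adhesion receptor, changed most, from 61.5 ± 2.45 to 5.14 ± 0.217 FPKM (SD, n = 3). The coreceptors CD4 (log2 change −1.45) and CD8A (−1.35) were lower, as was TRAT1 (−1.11), which associates with the receptor. ZAP70, the kinase that binds phosphorylated ITAMs, was higher (0.30), and LCK, a kinase that phosphorylates them, was not called (0.07, limma adjusted p 0.327). FYN, another kinase of this list, was higher (0.88, limma adjusted p 6.57e-05). Of these, CD4, CD8A, TRAT1, ZAP70, LCK and FYN were named after their values were seen.

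Of 25 tested transcription factors known to act at CD3 or receptor loci, 11 were called higher and 4 lower, with a median log2 change of 0.17. IKZF1, the edited gene, is in this list and is 1 of the 11 (log2 change 0.89). ID1, an inhibitor of E proteins, changed most, from 34.7 ± 6.04 to 116 ± 5.10 FPKM (SD, n = 3). Of 12 genes of V(D)J recombination, 1 was called higher and 4 lower, with a median of −0.07. RAG1, a subunit of the recombinase, fell from 58.3 ± 4.06 to 16.6 ± 1.43 FPKM (SD, n = 3). Of 15 genes for assembly and turnover of receptor chains, 7 were called higher and 2 lower, with a median of 0.24. SSR1, a subunit of the translocon-associated complex, changed most, from 55.0 ± 7.91 to 86.5 ± 11.9 FPKM (SD, n = 3). It lies on chromosome 6, where the median log2 change of all tested genes was 0.21. Of 9 other ITAM or antigen receptor adaptors and surrogate chains, 3 were tested: the adaptor HCST and the surrogate chains VPREB1 and IGLL1. The 2 surrogate chains were called lower, and HCST was not called. HCST and IGLL1 were named after their values were seen. VPREB1, a surrogate light chain of B-cell precursors, fell from 8.92 ± 0.506 to 0.781 ± 0.344 FPKM (SD, n = 3).

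**Figure D5:**
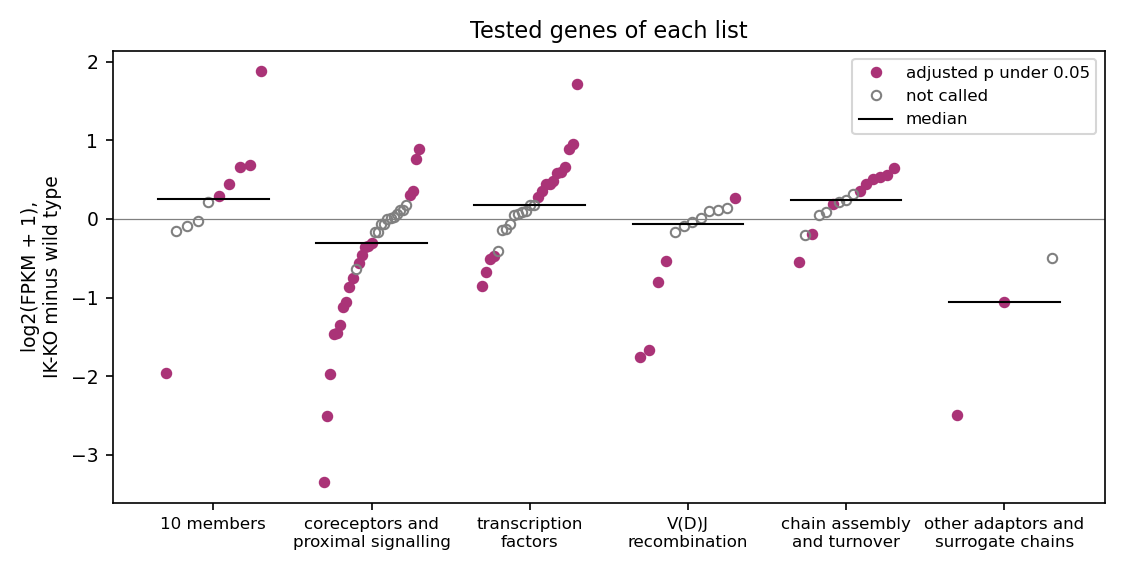
Change in log2(FPKM + 1), libraries labelled IK-KO minus wild type, of each tested gene in 6 lists, ordered by size within each list; filled circles were called by limma and bars are medians. The members range from −1.95 (TRAC) to 1.88 (CD247), and the coreceptors and signalling molecules reach −3.35 (CD2).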

How the data were processed

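RNA-seq of polyadenylated RNA was deposited as 1 gene-level table per library, in the layout of Cufflinks: an FPKM, its confidence bounds and a status. The deposited FPKM were made by the authors and are normalized for length and depth. The submitters' processing notes name STAR 2.6.1c, Cufflinks 2.2.1, HOMER 4.10 and hg38 without saying which step each served. The annotation release and the strand setting are not given in the sources used here, so overlapping and antisense genes are uncertain.

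Groups and replicate numbers came from the titles. The members and lists were chosen with earlier results of these data known. Rows of 1 gene identifier were summed (110 identifiers), and 29 identifiers with a failed estimate were left out. The 12652 genes whose mean FPKM reached 1 were tested in R 4.3.3 by limma 3.58.1 after the transformation log2(FPKM + 1), with a mean-variance trend. Tests were two-sided, and p-values were adjusted by Benjamini-Hochberg over all of these genes. The fit was tested on simulated data. Ratios of members were compared with an exact permutation test of the mean log2 ratio (scipy 1.17.1), and their folds are of geometric means.

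Fragments behind a value were inferred from the bounds as the square of 2 times the FPKM over the distance to the upper bound, for genes with 1 transcript in GENCODE release 44. Over such genes the median was between 12.9 and 15.3 fragments per FPKM and kilobase in the 6 libraries. Counts were not recovered for all genes, so no count model was used. Named genes were all members, the called gene with the largest change in each list, the gene with the largest change near each locus, all tested V segments and gamma constant genes, and the 3 genes most like the CD3 mean. Alternatives were another pseudocount (0.1), other filters, no trend, 2 other scalings, a replicate block, failed estimates kept, neighbours' changes removed, the 2 TRBC genes summed, and each library left out.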

Additional observations from a re-analysis of the deposited data

How the results depend on the processing

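Each group had 3 libraries, and CD3D and PTCRA lost their calls in several fits that left out 1 library. CD247, CD3G and TRAC kept their call and direction in all 15 alternatives, and CD3E, TRBC1, TRBV20-1 and TRBV10-3 were called in none of them. Without the filter on low values, 3 members were called in place of 6, of 27286 genes tested (7.37% called): CD3D (0.44, adjusted p 0.129), PTCRA (0.69, 0.135), TRBC2 (0.29, 0.0575) and the TRBC sum (0.29, 0.0574) lost their calls, with the changes on the log2 scale as before. With a mean FPKM of at least 0.1, CD3D (0.44, adjusted p 0.0524) and PTCRA (0.69, 0.0637) lost theirs. CD3D also lost it without the mean-variance trend (0.44, adjusted p 0.0664) and with median-ratio scaling (0.42, 0.0586), and PTCRA with neighbours' changes removed (0.41, 0.21). Leaving out 1 library each gave changes from 0.36 to 0.55 for CD3D, from 0.55 to 0.83 for PTCRA and from −0.17 to 0.18 for TRBC1. TRBC1 also changed sign with quantile normalization (0.033). With 1 library left out, between 4 and 5 members were called. The share of all tested genes called was then 13.6% to 16.1%, against 19.9% in the main fit. The cause of these losses was not tested.

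Libraries with the same replicate number did not deviate together (correlations over genes of 0.0669, 0.0248 and 0.00546), so the numbers were not taken as pairs. Under a replicate block, PTCRA was not called (0.69, adjusted p 0.059), and the block changed no other member's call. Few fragments lay behind some values: TRBC1 rested on at most 29 fragments a library, and TRAC on 27, 23 and 21 in those labelled IK-KO.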
